A study of Mus musculus with 10 samples.

Results

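The nuclear-encoded genes of the respiratory chain were followed across 10 RNA immunoprecipitation libraries of mouse neural stem cell cultures. Members were the protein-coding genes whose symbols began with Nduf, Uqcr, Cox4 to Cox8 or Atp5, together with Sdha, Sdhb, Sdhc and Sdhd. This rule used names alone and took 83 of the 15899 genes in the expression matrix, of which 12288 were protein-coding. Complex I contributed 43 members, including 6 Ndufaf assembly factors, complex II 4, complex III 8, complex IV 12 and complex V 16.

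The cells were neurospheres grown from the subependymal zone of adult mice aged 10 weeks. RNA was precipitated with an anti-FLAG antibody from Mex3aFLAG/FLAG cultures (FLAG), in which the endogenous RNA-binding protein MEX3A carries a FLAG tag at its carboxyl end, and from Mex3a+/+ cultures (WT), which have no tagged protein and so give the background of the precipitation. Both genotypes were precipitated after formaldehyde fixation (crosslinked, 2 FLAG and 2 WT libraries) or without it (native, 3 FLAG and 3 WT libraries). The sources call the replicates biological but do not describe the individual cultures, so the p-values measure the spread between these libraries. No input RNA was analysed here, and a difference between precipitates therefore cannot be separated from a difference in the amount of RNA in the cultures, nor fewer cells of a type from less RNA per cell.

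The values were deposited on a log2 scale, with nearly the same distribution in every library (medians 2.88 to 2.89), and the sequencing depth of each library is unknown. FLAG native 1 and FLAG native 3 stood apart, with 329 and 178 genes tied at the lowest value of the library against 1 to 3 genes in each of the other 8 libraries. Mex3a itself had log2 values of 3.92 and 4.16 in FLAG crosslinked against 2.75 and 3.03 in WT crosslinked, and of 5.95, 4.03 and 6.10 in FLAG native against 3.33, 3.52 and 2.89 in WT native. Its levels in FLAG lay above those in WT under both protocols, and the difference over all libraries was 1.73 ± 0.37 (log2, SE, limma adjusted p = 0.0789). All 7 neural stem and progenitor markers fixed for these cultures were in the matrix. Their summed linear level was 1976 to 2283 in WT crosslinked, 2011 to 2098 in FLAG crosslinked, 2555 to 2747 in WT native and 2244 to 2792 in FLAG native. These sums are carried mostly by the most abundant markers, and the median FLAG to WT log2 difference of the 7 over all libraries was 0.79 (-0.44 to 2.05), with 0 called. The 3 neuronal markers measured (Map2, Rbfox3 and Snap25) summed to 642 to 663 in FLAG crosslinked against 825 to 842 in WT crosslinked, and to 535 to 608 in FLAG native against 735 to 749 in WT native. Map2 made up most of this sum. The median FLAG to WT difference of the 3 was -0.64, and Rbfox3 was called lower (-1.31, limma adjusted p = 0.0127). The part of these stem cell and neuronal transcripts in the FLAG to WT results was not tested.

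The respiratory chain lies in the inner mitochondrial membrane. Complexes I and II pass electrons from NADH and succinate to ubiquinone, complex III passes them to cytochrome c and complex IV to oxygen, and the proton gradient built by complexes I, III and IV drives ATP synthesis by complex V. Most subunits are encoded in the nucleus, translated in the cytosol or at the mitochondrial surface and imported, while a small set is encoded by mitochondrial DNA. Complex II is the only one built from nuclear-encoded subunits alone. MEX3A is a KH-domain protein that binds RNA, and the MEX-3 recognition element is a bipartite motif described for its family, with a short spacer allowed between its parts.

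Respiratory chain transcripts had shorter 3′ untranslated regions (3′ UTRs) than protein-coding genes as a whole, and a smaller share of them carried this element, at a similar density. The median 3′ UTR of the members was 175 nt, against 1072.5 nt over 12034 protein-coding genes of the matrix with an annotated 3′ UTR. In the form given in the study's methods, the element occurred in 29 of 83 members (34.9%) and in 73.8% of those protein-coding genes, while its density was 2.59 per kb of 3′ UTR in the members and 2.79 per kb in the protein-coding genes. With the other published form of its second part, 43.4% of members and 73.3% of protein-coding genes had a match, at 2.84 and 2.59 per kb. Sites are given for Atp5b and Ndufaf4, which had among the highest FLAG to WT differences of the members, and for Sdhc (GRCm38, sense strand of the transcript, the form in the study's methods, capitals marking both parts of the element). A match is only a description of the letters.
Atp5b, chr10:128090236-128090245, plus strand, the only match of this form in its 3′ UTR of 272 nt: AGAGtaTTTA
Ndufaf4, chr4:24902140-24902155, plus strand, the first of 10 matches of this form in a 3′ UTR of 3026 nt: GTAGttcctgggTATA
Ndufaf4, chr4:24904644-24904654, plus strand, the last of these matches: AGAGcttTTTA
Sdhc, chr1:171128803-171128815, minus strand, 1 of 4 matches of this form in a 3′ UTR of 2636 nt: AGAGaatttTTTA
Sdhd, the member called between FLAG and WT, had 0 matches of this form and 2 of the other in its 3′ UTR of 728 nt. Of the others among the 10 members with the highest differences, Cox8a, Cox6a1, Cox5a and Ndufa1 had 0 matches of either form. Atp5a1 had 0 of this form and 1 of the other, Cox5b had 1 of each, and Uqcrq had 2 of this form and 1 of the other. The other form had 1 match in Atp5b, 13 in Ndufaf4 and 7 in Sdhc.

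Many respiratory chain transcripts were lower in crosslinked than in native precipitates, with the most negative values in complexes I, III, IV and V. A gene was called when its Benjamini-Hochberg adjusted p over all 15899 genes in limma was below 0.05 and its log2 fold change was beyond 0.58 in size. Over all libraries, with genotype as a covariate, 37 of 83 members were called lower in crosslinked than in native precipitates and 0 were called higher, where the background was 2.94% of all genes lower and 1.17% higher. At an unadjusted p below 0.05, 1 member was higher (background 4.58%) and 49 were lower (background 7.06%), and 9 of 83 had a positive difference (background 58.3%). The median log2 difference was -0.90 for the members and 0.06 for all genes. In 60 of 83 members every crosslinked library lay below every native library of its own genotype in both genotypes (background 6.92%), and in 48 all 4 crosslinked libraries lay below all 6 native ones (background 4.34%). The reverse, crosslinked above native in both genotypes, was seen in 2 members (background 8.30%).

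The medians of complexes III and IV were the lowest without a filter on low values. Over members with a mean linear value of at least 10, complex IV was still the lowest (-1.31), while complex V (-0.89) lay below complex III (-0.57). The median difference was -1.26 for complex III, with 5 of 8 members called lower, and -1.31 for complex IV, with 8 of 12. Complex V followed at -0.98 with 7 of 16, then complex I at -0.61 with 17 of 43 and complex II at -0.45 with 0 of 4. For complex II, 0 genes were called although all 4 had differences between -0.57 and -0.38.

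**Figure D1:**
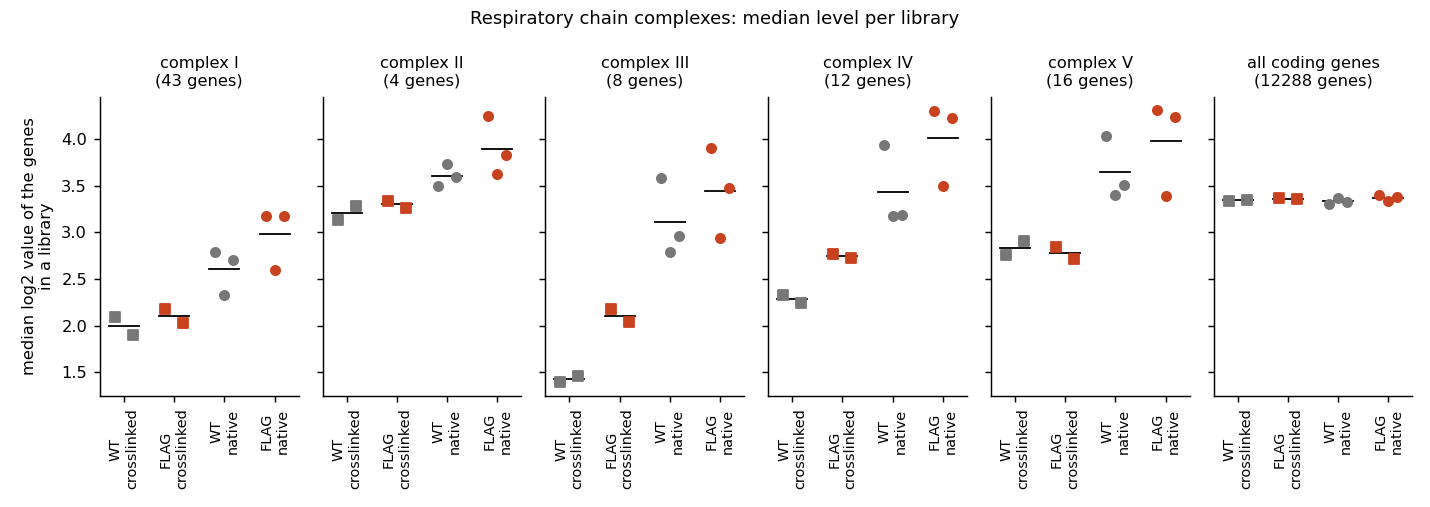
Median deposited log2 value of the genes of each complex in every library (vertical axis, one point per library, squares for crosslinked and circles for native, grey for WT and red for FLAG, horizontal bars for the mean of the libraries of a group). The medians of all coding genes stayed level across libraries, whereas in each complex the 4 crosslinked libraries lay below the 6 native ones.

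The calls under complex I names were in genes grouped here as accessory subunits, which surround the catalytic core. Ndufa4 is counted among them by its name, although its product is found in complex IV. This grouping by role was made after the values were seen and is a description. Of the 30 accessory subunits, 17 were called lower (median -1.01), and of the 6 Ndufaf assembly factors 0 were (median 0.22). Of the core subunits Ndufs1, Ndufs3, Ndufs7, Ndufs8, Ndufv1 and Ndufv2, 0 of 6 were called. Their log2 differences ran from -1.07 ± 0.31 for Ndufs8 (SE, adjusted p = 0.0803, limma) to 0.11 ± 0.18 for Ndufs3, which had 34.5% of transcript windows elsewhere in the genome, with -0.53 for Ndufv2, -0.21 for Ndufv1, -0.09 for Ndufs7 and -0.02 for Ndufs1.

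The largest decreases were in complexes I, III, IV and V. Atp5k, the e subunit of ATP synthase, had log2 values of 0.34 and -0.01 in WT crosslinked and 0.86 and 0.98 in FLAG crosslinked, against 4.01, 2.39 and 3.25 in WT native and 3.74, 3.03 and 4.24 in FLAG native. All crosslinked values lay below all native ones, and the difference was -2.90 ± 0.32 (log2, SE, n = 4 and 6 libraries, limma adjusted p = 0.00109). Uqcr11, the smallest subunit of complex III, was at 0.01 and 0.42 in WT crosslinked and 0.98 and 0.81 in FLAG crosslinked, against 3.54, 2.43 and 2.95 in WT native and 3.83, 2.85 and 3.43 in FLAG native. Again the groups did not overlap, with a difference of -2.62 ± 0.25 (adjusted p = 0.000836, limma). Ndufa1, an accessory subunit needed for complex I assembly, was at -0.55 and -1.16 in WT crosslinked and -0.09 and 0.04 in FLAG crosslinked. Its native values were 2.18, 1.32 and 1.99 in WT and 2.41, 1.89 and 2.77 in FLAG, a difference of -2.54 ± 0.26 (adjusted p = 0.000918, limma). Cox6a1, a regulatory subunit of cytochrome c oxidase, differed by -2.33 ± 0.22 and its 4 crosslinked values (1.26 to 2.10) lay below its 6 native ones (3.24 to 4.88). The other members with differences below -1.8 were Cox5b (-2.26), Uqcr10 (-2.19), Atp5e (-2.04), Ndufa2 (-2.03), Uqcrq (-1.92) and Ndufa3 (-1.85), all of which were called.

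The remaining called members had smaller decreases. In complex I these were Ndufb11 (-1.57), Ndufc1 (-1.44), Ndufb8 (-1.39), Ndufb10 (-1.36), Ndufs5 (-1.31), Ndufa5 (-1.29), Ndufb4 (-1.27), Ndufb7 (-1.21), Ndufb9 (-1.08), Ndufa8 (-1.05), Ndufa11 (-1.02), Ndufv3 (-1.004) and Ndufa13 (-0.71). In complex III they were Uqcrh (-1.43), the hinge protein, and Uqcrfs1 (-1.08), the Rieske iron-sulfur protein. In complex IV they were Cox6b1 (-1.40), Cox6c (-1.22) and Cox7b (-1.01) beside Cox8a (-1.59), and in complex V Atp5j2 (-1.44) and Atp5h (-0.96) beside Atp5b (-1.27). Ndufa13, Ndufb8 and Ndufb9 each share over 50% of their span with another gene on the same strand, and Ndufs5, Ndufb4, Atp5h and Cox5b had 43.6%, 39.7%, 50.3% and 31.5% of transcript windows elsewhere in the genome.

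Few members went the other way, and 0 of them were called. Atp5l, the g subunit of ATP synthase, was at 2.70 and 2.96 in WT crosslinked and 2.76 and 2.64 in FLAG crosslinked, against 2.36, 1.78 and 2.34 in WT native and 1.95, 2.35 and 2.23 in FLAG native. Its crosslinked values all lay above its native values, and the difference was 0.60 ± 0.17 (adjusted p = 0.0722, limma). With the trends on transcript length and GC content removed it was called higher (0.72, adjusted p = 0.0213, limma). Of the 75-nt windows of the Atp5l transcript, 80.4% occurred elsewhere in the genome, so its reads are open to loss or misassignment. The assembly factors Ndufaf7 (0.42) and Ndufaf6 (0.34) and the gene Atp5s (0.40) had positive differences that did not pass the test. Ndufs4, Ndufaf2 and Atp5o differed by 0.03, -0.06 and -0.03. The matrix gives Atp5o, the subunit that links the catalytic head of ATP synthase to its stator, a span of 247290 nt (chr16:91684398-91931687, GRCm38), which overlaps Itsn1 on the opposite strand and Cryzl1 and Donson on the same strand, so its values, 7.44 to 7.81 in all libraries, may hold reads of other genes.

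Genes for alternative forms of a subunit had unequal values in this contrast, and the differences between them were not tested. Cox4i1, the ubiquitous form of cytochrome oxidase subunit 4, differed by -1.51 and was called. Its whole span lies within Gm20388 on the same strand, so its reads are ambiguous. Cox4i2, the form known from lung and low oxygen, differed by 0.43 ± 0.48 and was not called. Of the 3 genes for the c ring of ATP synthase, which encode the same mature protein, Atp5g1 (-1.73) and Atp5g3 (-1.28) were called lower and Atp5g2 differed by -0.22 (adjusted p = 0.558, limma). For Atp5g2, 88.0% of the transcript windows occurred elsewhere in the genome, and its value is uncertain. Cox7a2 differed by -1.44 and was called, and its relative Cox7a2l, a factor for joining complexes III and IV into supercomplexes, by -0.26, with 48.2% of windows elsewhere. Ndufa4 differed by -1.65 and was called.

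The 2 genotypes share no library and gave similar orderings of the members. The Spearman correlation of the WT and FLAG differences was 0.92 over the 83 members and 0.49 over 12288 protein-coding genes, as descriptions across genes that are not independent. In WT alone the median was -0.71, with 0 members called by limma (background 0.0126% lower and 0.0252% higher), 44 lower at an unadjusted p below 0.05 (background 4.24%), 1 higher (background 3.11%), 12 with a positive difference (background 53.1%) and 63 with crosslinked below native (background 12.5%). In FLAG alone it was -0.98, with 0 called by limma (background 0.0503% lower and 0.0189% higher), 47 lower at an unadjusted p below 0.05 (background 5.89%), 9 with a positive difference (background 59.1%) and 61 with crosslinked below native (background 13.5%). With the replicate number as a block, limma called 7 members lower in WT, where 0.723% of all genes were called lower, and 23 in FLAG, where 2.38% were. The difference of the genotype effect between protocols was called in 0 members by limma, and 0 had an unadjusted p below 0.05 in either direction (background 0.182% higher and 0.233% lower). Its median was -0.20, with 26 members above 0 (background 53.2%), it ran from -0.35 to -0.068 when 1 library was left out, and it was 0.20 without FLAG native 1 and 3.

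**Figure D2:**
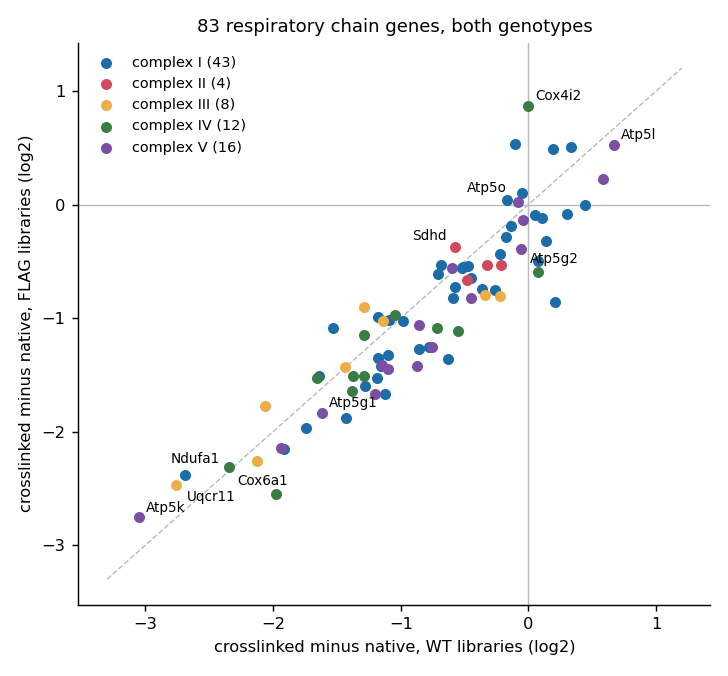
Log2 difference of crosslinked from native precipitates in WT libraries (horizontal axis) and in FLAG libraries (vertical axis) for each of the 83 members, coloured by complex, with the dashed line marking equal values. Most points lay in the lower left along the line, from Atp5k at the far end to Atp5l in the upper right.

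The called members were mostly short genes. Across the 83 members the Spearman correlation of the difference between protocols with the span of the gene was 0.73, and with transcript length 0.50, whereas over 12276 protein-coding genes these were 0.12 and 0.02. The 28 members with the shortest spans (1205 to 6487 nt) had a median difference of -1.44 and 23 were called lower. The 27 in the middle had a median of -0.71 with 11 called, and the 28 longest (10918 to 247290 nt) a median of -0.35 with 3 called. The shortest decile of protein-coding genes by span, with members left out (1202 genes, median span 3777 nt), had a median of -0.31. Of these genes, 249 were called lower. Their span cut is not that of the 28 shortest members. Whether exons or whole genes were counted is not given in the sources used here, and the part of gene span in these differences was not tested. With the trends of each library on transcript length and GC content removed, the members' median was -0.77 and 39 were called lower, where 3.11% of all genes were.

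**Figure D3:**
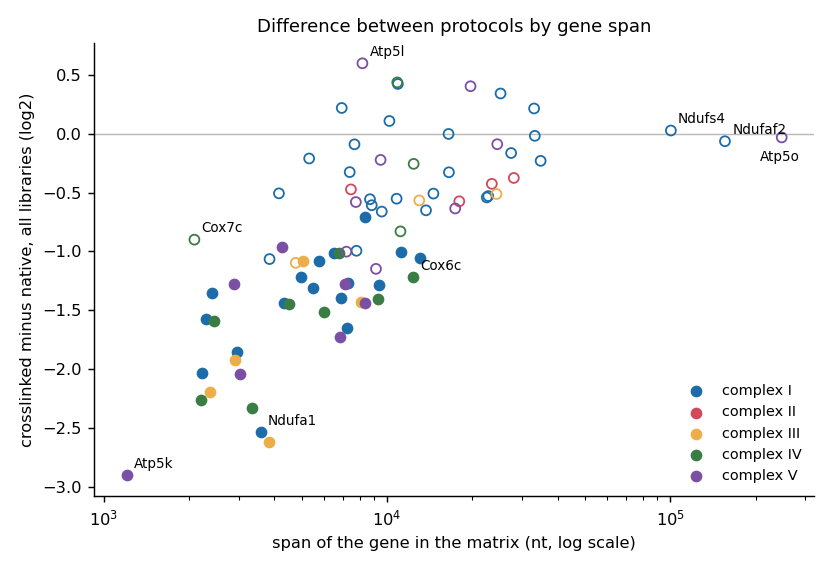
Log2 difference of crosslinked from native precipitates over all libraries (vertical axis) against the span of the gene in nt on a log scale (horizontal axis), with one point per member coloured by complex and filled where the gene was called lower. Called members crowded at the short end, where 23 of the 28 shortest were filled, and 3 of the 28 longest.

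Other groups of genes bore on the same contrast. The 7 mitochondrially encoded subunits of the matrix were all called lower, with a median of -3.74. Of 78 cytosolic ribosomal protein genes, 56 were called lower (median -1.28). Of 34 proteasome subunit genes, 4 were called lower (median -0.28), and of 35 assembly factors outside the name rule, 3 (median 0.07). Cyc1, which encodes the cytochrome c1 subunit of complex III and lies outside the name rule, and Cycs, which encodes cytochrome c, had a median of -0.64 with 0 called. The 12 regulators of mitochondrial biogenesis, which include Ppargc1a, Nrf1 and Tfam, had a median of 0.25, with 1 called higher and 0 lower.

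The FLAG to WT comparison asks which of these transcripts were precipitated with tagged MEX3A above the untagged background. Most members were slightly higher in FLAG, and 1 passed the test. Over all libraries, with protocol as a covariate, limma called Sdhd higher and 0 members lower, against a background of 0.264% of genes higher and 0.233% lower. At an unadjusted p below 0.05, 11 members were higher (background 7.24%) and 0 lower (background 5.28%). The median log2 difference of the members was 0.30, with 72 of 83 above 0, where 46.8% of all genes were above 0. This median was 0.14 with a pseudocount of 8, and 0.091 with array weights, where 59 members were above 0. These weights were 10.2 for FLAG crosslinked 2 and 9.02 for WT crosslinked 1. They were 0.124 and 0.159 for FLAG native 1 and 3 and at most 1.36 for the rest. Without weights, the medians by complex were 0.26 for complex I, 0.34 for complex II, 0.52 for complex III, 0.42 for complex IV and 0.34 for complex V. That of the Ndufaf assembly factors was -0.08.

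Sdhd is a small membrane anchor subunit of succinate dehydrogenase that helps to form the ubiquinone and haem sites. On chromosome 9 it spans chr9:50596357-50603812 in the matrix (GRCm38). Its log2 values were 3.02 and 3.13 in FLAG crosslinked against 2.05 and 2.13 in WT crosslinked, and 3.68, 3.16 and 3.50 in FLAG native against 2.85, 2.66 and 2.48 in WT native. FLAG lay above WT under both protocols without overlap, which 2 members showed (background 4.84%), and 0 members lay below WT in this way (background 4.47%). The difference over all libraries was 0.86 ± 0.14 (log2, SE, n = 5 and 5 libraries, limma adjusted p = 0.0366), or 1.82-fold, and it was 0.98 in crosslinked and 0.78 in native precipitates. The call held without FLAG native 2 or without WT crosslinked 2 and was lost when any 1 of the other 8 libraries was left out, with adjusted p from 0.0136 to 0.144 over all 10 such fits and a difference of 0.81 to 0.95. The adjusted p was 0.0759 in 1 fit of 4 groups and 0.0816 with the replicate block. None of these fits took genotype and replicate number together as the unit. Whether same-numbered crosslinked and native libraries share a culture is unknown.

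The other 3 complex II genes did not pass the test. Sdhc, the partner anchor subunit and the other member without overlap, was at 3.44 and 3.28 in FLAG crosslinked against 3.08 and 3.21 in WT crosslinked, and at 4.17, 3.59 and 3.91 in FLAG native against 3.33, 3.56 and 3.51 in WT native. Its difference was 0.34 ± 0.14 (adjusted p = 0.207, limma). Sdha, the flavoprotein subunit, differed by 0.35 ± 0.16 (adjusted p = 0.246), and Sdhb, the iron-sulfur subunit, by 0.09 ± 0.15 (adjusted p = 0.731).

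**Figure D4:**
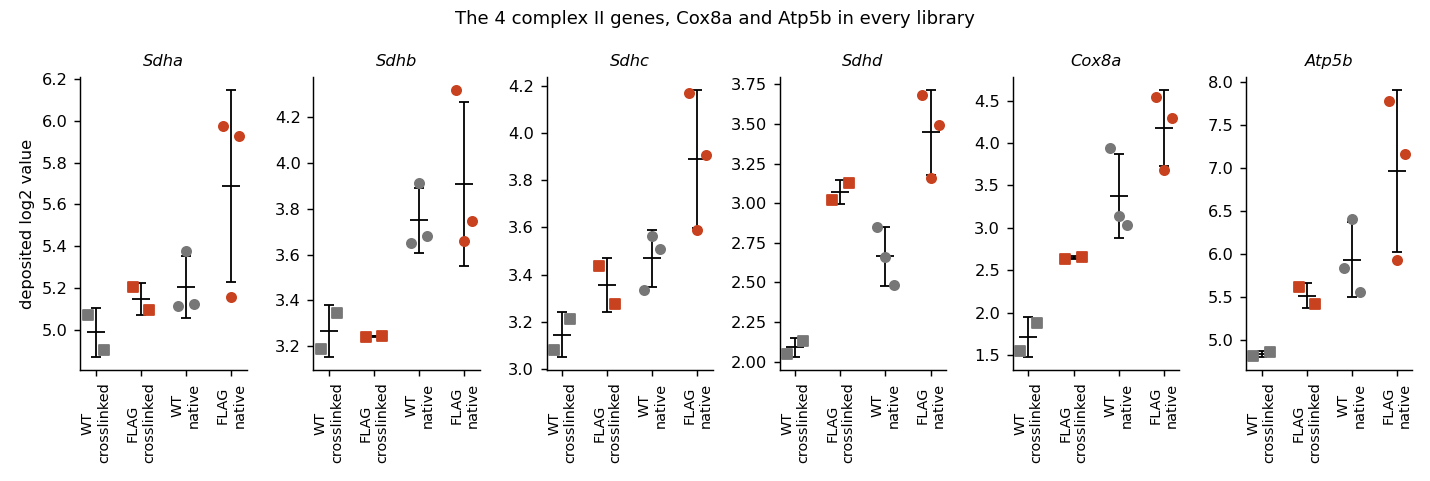
Deposited log2 value (vertical axis, scaled for each gene) of the 4 complex II genes, Cox8a and Atp5b in every library, with squares for crosslinked and circles for native, grey for WT and red for FLAG, and bars for the mean and SD of each group (n = 2 crosslinked, n = 3 native). Sdhd in FLAG lay above WT in both protocols, while Atp5b overlapped between genotypes in native precipitates.

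In the fit with all libraries Atp5b had the largest difference of all members, and like Cox8a it did not pass the test. Cox8a, a small subunit of cytochrome oxidase, was at 2.64 and 2.66 in FLAG crosslinked against 1.55 and 1.88 in WT crosslinked, and at 4.54, 3.68 and 4.30 in FLAG native against 3.94, 3.15 and 3.04 in WT native. Its difference was 0.85 ± 0.21 (adjusted p = 0.0982, limma). Atp5b, the catalytic beta subunit of ATP synthase, was at 5.61 and 5.41 in FLAG crosslinked against 4.81 and 4.85 in WT crosslinked, and at 7.78, 5.93 and 7.16 in FLAG native against 5.83, 6.41 and 5.55 in WT native. The difference was 0.89 ± 0.30 (adjusted p = 0.158), and the 2 highest values were those of FLAG native 1 and FLAG native 3. Over the alternative settings the difference of Atp5b ran from 0.39 to 1.15, and that of Sdhd from 0.41 to 0.98. Ndufaf4 (0.71), Atp5a1 (0.67), Cox6a1 (0.66), Cox5a (0.66), Ndufa1 (0.65), Cox5b (0.62) and Uqcrq (0.61) were next, with adjusted p of 0.141 to 0.231. At the other end were Cox4i2 (-0.58 ± 0.47), Ndufaf5 (-0.38), Ndufaf6 (-0.24), Atp5o (-0.19) and Ndufs4 (-0.17), followed by Ndufaf7 (-0.12), Ndufb9 (-0.08), Ndufv3 (-0.08), Ndufa12 (-0.06) and Atp5l (-0.04). In complex III the lowest value was that of Uqcrh (0.24). In FLAG native 3 Cox4i2 was at the lowest value of the library, and its difference was -0.13 without FLAG native 3 and 0.097 without FLAG native 1 and 3.

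Within each protocol alone 0 members were called by limma. In crosslinked precipitates, where the background was also 0%, the median was 0.14 and 67 members were above 0 (background 46.3%). At an unadjusted p below 0.05, 9 were higher (background 2.78%) and 0 lower (background 0.987%), and 42 had both FLAG libraries above both WT libraries (background 19.1%), with 3 the reverse (background 19.9%). The complex III median there was 0.52, but it was 0.041 over members with a mean linear value of at least 10 and 0.11 with a pseudocount of 8, so the order of the complexes depended on the setting. In native precipitates, with a background of 0.107% of genes called lower and 0% higher, the median was 0.40 and 72 members were above 0 (background 47.4%), 6 were higher at an unadjusted p below 0.05 (background 7.77%) and 1 lower (background 7.06%), 4 had all FLAG above all WT libraries (background 8.62%) and 4 the reverse (background 10.8%). The Spearman correlation of the 2 sets of differences, which share no library, was 0.51 over the members and 0.62 over protein-coding genes.

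In native precipitates the shift rested on 2 of the 3 FLAG libraries. Against the mean of the WT native libraries, the median member was higher by 0.69 in FLAG native 1 and by 0.54 in FLAG native 3, the libraries with many genes tied at their lowest value, and it was -0.03 in FLAG native 2. The WT native libraries, each against the rest of the WT native group, gave 0.31, -0.13 and -0.14. In crosslinked precipitates the medians were 0.20 and 0.10 for the 2 FLAG libraries and -0.05 and 0.05 for the WT libraries. Without FLAG native 1 and 3 the median over all libraries was 0.06, against 0.30 with them, and 0 members were called. Without FLAG native 2, limma called 18 members higher and 1 lower in native precipitates, where 9.12% of all genes were called higher and 10.8% lower. Over all libraries it called 5 higher, where 3.25% of all genes were.

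**Figure D5:**
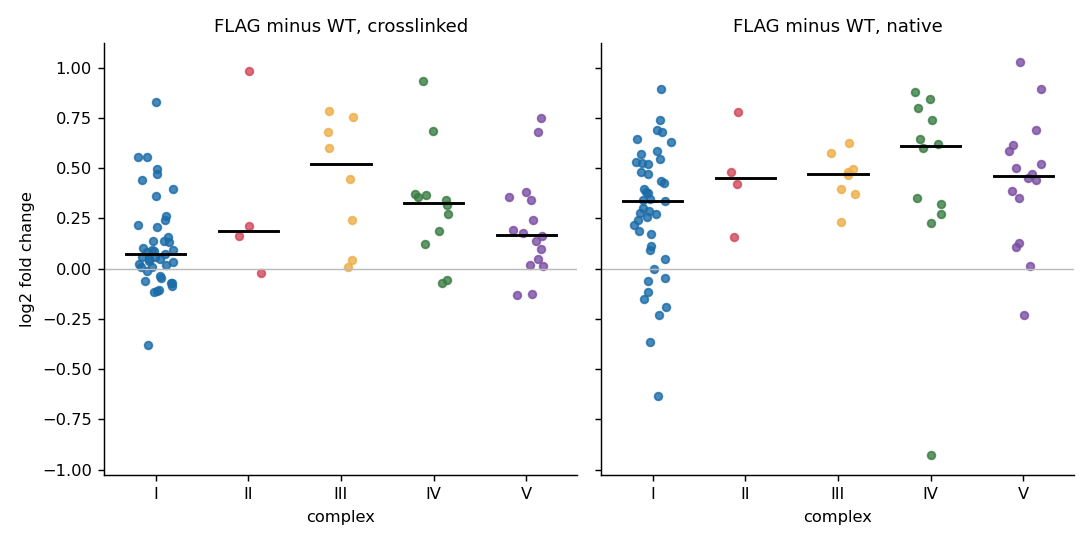
Log2 fold change of FLAG over WT (vertical axis) for each member of complexes I to V in crosslinked (left) and native (right) precipitates, with one point per gene spread sideways at random and a bar for the median of the complex. Medians were above 0 in every panel, from 0.07 for complex I crosslinked to 0.61 for complex IV native.

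Positive medians were also seen outside the respiratory chain. The median over all libraries was 0.50 for the mitochondrially encoded subunits, 0.37 for cytosolic ribosomal protein genes, 0.15 for proteasome subunits and 0.03 for assembly factors outside the rule, with 0 genes called higher in each list. It was 0.39 for the 1202 shortest protein-coding genes outside the group, of which 8 were called higher. Across members the FLAG to WT difference had a Spearman correlation of -0.59 with gene span, and across protein-coding genes of -0.41. The shortest, middle and longest members by span had medians of 0.51, 0.30 and 0.15.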

How the data were processed

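The authors trimmed the reads with Cutadapt and Trimmomatic, aligned them with HISAT2 to GRCm38 and counted genes with featureCounts. The deposited table holds log2 values per gene with nearly equal distributions in all libraries. The authors state that they normalized the counts with DESeq2, and the labels also list limma. The step that gave the deposited values their equal distributions, the counting feature and the strand setting are not given in the sources used here. Counts were not analysed, so depth is unknown and the number of libraries limits precision.

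All 15899 genes were fitted without a filter, on the deposited log2 values, with limma 3.58.1 (R 4.3.3, lmFit and eBayes with a trend), Benjamini-Hochberg adjustment over all genes and tests that were two-sided. Fits over all libraries carried the other factor as a covariate. The members and lists were chosen with earlier results of these data known. Named genes were the called members, the extremes of each complex and comparison, the 4 Sdh genes and the isoform sets. The core subunits and the grouping of complex I by role were added after the values were seen. The limma script was tested on simulated data. Gene properties came from GENCODE M21, in which 83 of 83 members were found, 70 with the same span. Replicate numbers were checked as pairs: same-numbered crosslinked and native libraries of 1 genotype deviated together (r of 0.18, 0.15, 0.30 and 0.39), same-numbered FLAG and WT libraries did not. Pairs with different numbers ran from -0.39 (WT crosslinked 1 with WT native 2) to 0.40 (FLAG native 2 with WT native 3). These values therefore do not settle whether equal numbers mark the same culture. Alternatives covered pseudocounts, filters on low values, normalization, length and GC content, moderation, weights, blocks and leaving out libraries. Values of 1 member are not reported here by name.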

Additional observations from a re-analysis of the deposited data

How the results depend on the processing

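The direction of the medians over the members held for crosslinked against native under all alternatives run, while counts of calls depended on the setting. For crosslinked against native over all libraries, 37 members were called lower, where 2.94% of all genes were. With 1 library left out, 26 to 50 members were called lower. The share of all genes was 1.33% in the fit with 26, without FLAG crosslinked 2, and 4.83% in that with 50, without FLAG native 2. Of the 37, 26 were called in every fit that left out 1 library. A pseudocount of 8 on the linear scale gave 18 calls, where 0.918% of all genes were called lower. The medians were then -0.37 for the members and -0.28, -0.56, -0.76 and -0.45 for complexes I, III, IV and V. With a mean of at least 10, which 34 members passed, there were 10 calls, where 1.81% of the 6953 genes kept were called lower. The medians were then -0.57 for the members, -0.20 for complex I, -0.57 for complex III, -1.31 for complex IV and -0.89 for complex V. With a mean of at least 50, which 4 members passed, there were 0 calls, where 0.615% of the 2115 genes kept were called lower. The median was then -0.59, and complex I was Ndufs4 alone (0.026). With the length and GC trend removed 39 were called lower and 1, Atp5l, higher (0.72, adjusted p = 0.0213, limma). Of all genes, 3.11% were called lower and 0.981% higher there. Without FLAG native 1 and 3 the median was -0.59 and that of complex V -0.69. Leaving out libraries gave medians of -0.98 to -0.59 for the members, -0.67 to -0.51 for complex I, -0.52 to -0.34 for complex II, -1.40 to -1.14 for complex III, -1.39 to -1.18 for complex IV and -1.10 to -0.69 for complex V.

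In WT the calls rose from 0 to 7 with the replicate block, 21 with array weights and 6 in 1 fit of 4 groups, where 0.723%, 0.956% and 0.289% of all genes were called lower, and the median was -0.30 with a pseudocount of 8 and -0.76 to -0.53 with libraries left out, where 0 were called. In FLAG they rose from 0 to 23 with the replicate block, 45 with array weights, 11 in 1 fit of 4 groups and 39 without FLAG native 2 (0 to 39 over libraries left out), where 2.38%, 4.79%, 0.396% and 4.82% of all genes were called lower, and the median was -0.43 with a pseudocount of 8, -0.70 with a mean of at least 50, -0.43 without FLAG native 1 and 3, and -1.10 to -0.43 over all libraries left out. The replicate block changed the call of Sdhd (adjusted p = 0.0816, limma). It left 30 members called lower over all libraries, where 1.69% of all genes were. With genotype and number as the block 34 were, where 2.36% of all genes were.

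For FLAG against WT over all libraries, the count of 1 became 0 with a pseudocount of 8, a mean of at least 10 or 50, the replicate block, 1 fit of 4 groups and without FLAG native 1 and 3, and 7 with array weights, where 6.95% of all genes were called higher. It was 0 to 5 when 1 library was left out, and 3.25% of all genes were called higher in the fit with 5. The complex III median was 0.21 with a pseudocount of 8 and 0.28 with a mean of at least 10. With a mean of at least 50 complex I was Ndufs4 alone (-0.17) and complex V was Atp5a1, Atp5b and Atp5o (median 0.67). Without FLAG native 1 and 3 the complex V median was 0.071 and the difference between protocols 0.20, against -0.35 to 0.20 over libraries left out. The medians over libraries left out were 0.06 to 0.43 for the members, 0.04 to 0.33, 0.12 to 0.44, 0.29 to 0.64, 0.20 to 0.57 and 0.07 to 0.46 for complexes I to V, and 0.10 to 0.20 in crosslinked precipitates. In native precipitates the median was -0.03 to 0.65 over libraries left out, and -0.030 without FLAG native 1 and 3, with 0 to 18 members called higher and 0 to 1 lower. Array weights gave 10 higher and 1 lower there, near the 10.4% of all genes called higher. Cox4i2 reversed from -0.58 to 0.090 with array weights and to 0.097 without FLAG native 1 and 3. Same-numbered FLAG and WT crosslinked libraries had r of -0.27, and crossing their numbers gave 0 calls. The causes of these changes were not tested.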

Other observations

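Timm8b, which encodes a small chaperone for proteins imported into the mitochondrial inner membrane, begins 97 nt beyond the start of Sdhd on the opposite strand of chromosome 9. It was looked at after its values were seen. Its log2 values were 1.32 and 1.43 in FLAG crosslinked against -0.25 and -0.47 in WT crosslinked, and 2.46, 2.12 and 2.77 in FLAG native against 1.88, 1.51 and 1.37 in WT native. FLAG lay above WT without overlap under both protocols, as for Sdhd, and the difference over all libraries was 1.21 ± 0.23 (SE, limma adjusted p = 0.0508).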
